A study of Mus musculus with 13 samples.

Results

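Collagen genes were taken as every entry of the deposited gene table whose symbol has the form Col, a number, a, a number. This gave 43 genes among 53832 entries, none of them listed more than once, and all 43 are accounted for here. Values are TPM, the share of each library's transcripts that a gene takes, corrected for gene length, so levels can be compared between genes. The libraries were made from poly(A) RNA of right cortices dissected from perfused mice. WT water denotes wild-type mice given distilled water (n = 6 libraries), APP/PS1 water denotes APP/PS1 mice given distilled water (n = 3), and APP/PS1 trazodone denotes APP/PS1 mice given trazodone (n = 4). The sample titles state 2 weeks for every group. APP/PS1 mice carry transgenes for mutant amyloid precursor protein and mutant presenilin and are used as a model of Alzheimer's disease, and trazodone is a serotonergic antidepressant. The sources used here do not name the transgene line, the promoter that drives it, the dose, or the age and sex of the mice. There is no WT group given trazodone, so the APP/PS1 trazodone group differs from WT water in both genotype and drug. The labels do not state that each library is a separate animal, so p-values measure the spread between these libraries, which may be technical in part.

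Collagens are triple-helical matrix proteins whose alpha chains assemble in fixed combinations. Fibrillar collagens build cable-like fibrils, type IV collagens build the sheet of the basement membrane around brain vessels, type VI collagens form beaded microfilaments, fibril-associated collagens decorate fibrils, and transmembrane collagens sit in the plasma membrane of the cell that makes them. In the brain most fibrillar collagen lies in the meninges and around large vessels, basement membrane collagen lies along the capillaries, and Col25a1 encodes a neuronal transmembrane collagen whose shed ectodomain is a component of amyloid plaques in Alzheimer's disease.

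Of the 43 collagens, 40 reached a mean of 0.5 TPM over the 13 libraries and were tested among 18612 genes with limma on log2(TPM + 0.5). A call is a Benjamini-Hochberg adjusted p under 0.05, and a fold change on this scale understates the change of genes with low TPM. The 3 collagens under the minimum were Col4a3, Col4a4 and Col10a1. By class, the tables held 11 fibrillar genes, 6 type IV genes, 6 type VI genes, 8 fibril-associated genes, 4 transmembrane genes, 3 short-chain genes, 3 genes of the basement membrane zone (Col15a1, Col18a1 and Col7a1) and 2 others. Depth was estimated at 31.0 to 37.2 M fragments a library. The 6 neuronal markers summed to between 4508 and 5445 TPM in every library, which fits the labelled tissue.

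Some libraries stood apart before any collagen was compared. WT water 3 and WT water 6 carried choroid plexus markers: the 7 choroid plexus markers summed to 494 and 2234 TPM there, against 11.8 to 31.7 TPM in the other libraries, and no marker was at 0 in every library. WT water 6 also had the highest value among the WT libraries for 20 of the 40 tested collagens (50%), against 24.0% of all tested genes. The 3 APP/PS1 water libraries differed from the rest in the trend of expression with gene GC content. Its slope per 10 percentage points of GC was -0.23 to -0.16 on the log2 scale in APP/PS1 water, -0.04 to 0.10 in WT water and 0.03 to 0.14 in APP/PS1 trazodone. This touches collagens directly, because the tested collagens are GC-rich: their median transcript GC content was 55.4%, from 45.9% in Col25a1 to 62.9% in Col11a2, against 49.6% over all tested genes, and 34 of 40 lay above that all-gene median. The slope and the APP/PS1 water group cannot be told apart in this design. Results are therefore given with and without WT water 3 and 6, and with and without a correction for GC content and transcript length.

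In WT water the type VI chain Col6a1 was the most abundant collagen transcript, and the basement membrane pair Col4a2 and Col4a1 followed it. Col6a1 averaged 73.7 ± 11.7 TPM (SD, n = 6), which was 21.9% ± 1.7 of the summed collagen TPM. Col4a2 at 30.5 ± 1.59 and Col4a1 at 23.1 ± 1.57 TPM together made up 16% ± 1.2. The next in order were Col6a2 (20.5 ± 1.84 TPM), the fibril-associated Col16a1 (18.3 ± 2.27), the fibrillar Col5a1 (14.8 ± 1.92), the transmembrane Col25a1 (14.3 ± 2.64), the fibrillar Col11a2 (13.1 ± 1.51) and the fibril-associated Col9a3 (12.1 ± 4.54). From Col5a1 to Col9a3, each mean lay within 1 SD of its neighbours, so the order among those genes is not resolved. The intervals between Col6a1, Col4a2 and Col4a1 were wider than 1 SD. The type I pair that dominates skin and bone stood well below the vascular chains, with Col1a2 at 10.9 ± 2.54 and Col1a1 at 6.13 ± 1.02 TPM.

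By class, type VI genes supplied 29.9% ± 1.4 of WT collagen TPM, fibrillar genes 22% ± 0.64, type IV genes 17.2% ± 1.1, fibril-associated genes 17% ± 0.72 and transmembrane genes 7.8% ± 1.3. The basement membrane zone genes supplied 2.5%, the 2 other genes 2.2% and the short-chain genes 1.3%. The transmembrane share rested almost wholly on Col25a1 and Col23a1. The spread between WT libraries was the smallest of all 43 genes for the vascular chains, with a coefficient of variation of 5.2% for Col4a2 and 6.8% for Col4a1, and it was 15.9% for Col6a1 and 42.9% for Col3a1.

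**Figure D1:**
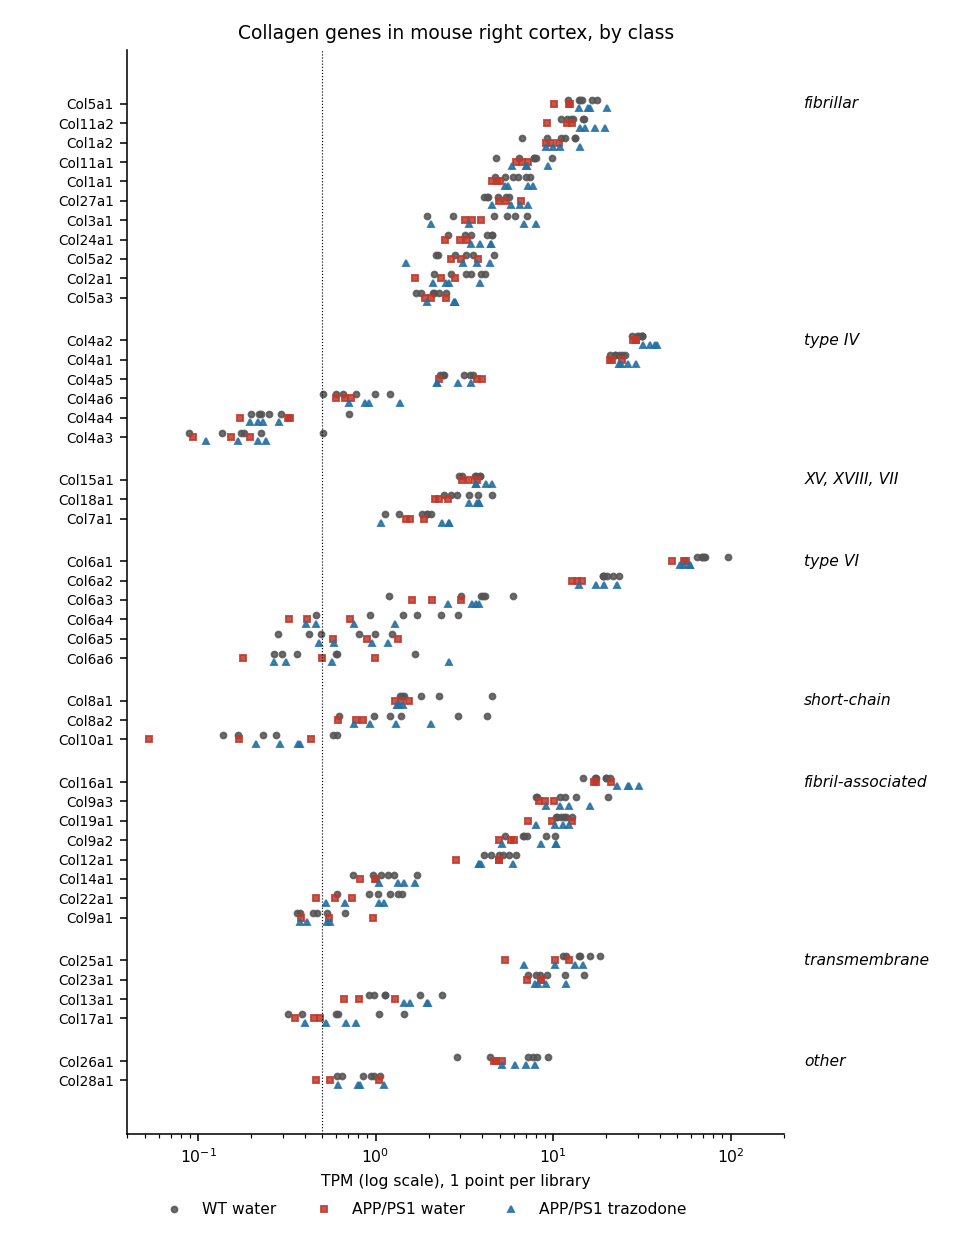
Level of each of the 43 collagen genes in each of the 13 libraries, in TPM on a log axis, with genes ordered by class and 1 point per library coloured by group. The dotted line marks the 0.5 TPM mean minimum; Col6a1 is the highest gene and Col4a3, Col4a4 and Col10a1 are the 3 genes under the minimum.

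The summed TPM of all 43 collagens was 336 ± 33.9 (SD, n = 6) in WT water, 274 ± 6.7 (n = 3) in APP/PS1 water and 336 ± 30.5 (n = 4) in APP/PS1 trazodone. The APP/PS1 water libraries ran from 267 to 280 TPM, below all WT libraries (309 to 399 TPM) and all trazodone libraries (310 to 378 TPM). Without WT water 3 and 6 the WT mean was 323 ± 19.2 TPM. This sum and the class sums below are of TPM as deposited, without the GC and length correction. They are read as levels, with no test. With that correction the median collagen fold change went from -0.25 to 0.05 in APP/PS1 water against WT water. In trazodone against APP/PS1 water it went from 0.27 to 0.01.

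Between APP/PS1 water and WT water, 2 of the 40 tested collagens fell and 0 rose. Both that fell, Col6a1 and Col6a2, are type VI chains, and the count stands against a background of 17.5% of all tested genes called lower and 6.19% called higher. The share of collagens called lower was below that background share. At an unadjusted p under 0.05, 7 collagens were lower and 0 higher. The median collagen fold change was -0.25 on the log2 scale, with 33 genes below 0 and 7 above, and the median of all tested genes was -0.10. After the GC and length correction none of the 40 collagens was called lower and 5 were called higher, namely Col4a1, Col4a2, Col16a1, Col27a1 and Col5a3, with 6.16% of 18253 genes called lower and 6.45% called higher. The median collagen fold change was then 0.05, with 23 genes above 0 and 17 below. Without WT water 3 and 6, 3 collagens fell and 0 rose, the third being Col6a3, against 16% of genes lower and 5.67% higher. The correction thus turned the direction of the collagen median. Across all genes the split of calls was 1153 higher and 3260 lower as analysed, 2003 higher and 2055 lower with median-ratio scaling, and 1896 higher and 2191 lower on FPKM. The same 2 counts of collagens, 0 higher and 2 lower, came from both of those scalings, with medians of -0.15 each.

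Between APP/PS1 trazodone and APP/PS1 water, 5 of the 40 collagens rose and 0 fell. They were Col16a1, Col4a2, Col11a2, Col5a1 and Col18a1, against 12.5% of all tested genes called higher and 3.92% called lower. This share of collagens was equal to that background. The collagen median was 0.27, with 35 genes above 0 and 5 below, and the all-gene median was 0.07. After the correction 0 of 40 collagens were called in either direction by limma, and 0 had an unadjusted p under 0.05, with 2.45% of genes called higher and 1.63% lower, and the collagen median was 0.01. Without WT water 3 and 6 the counts were again 5 higher and 0 lower, against 12.3% and 3.86% of genes. Across all genes the split was 2319 higher and 730 lower as analysed and 1636 higher and 1384 lower with median-ratio scaling, where 2 collagens, Col11a2 and Col16a1, rose. This comparison and the one with WT water share the 3 APP/PS1 water libraries, so their values are not independent of each other.

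Between APP/PS1 trazodone and WT water, 1 collagen, Col16a1, rose and 0 fell, against 1.97% of all genes called higher and 0.258% called lower. The collagen median was 0.05 and the all-gene median -0.04. The correction left the same counts of 1 higher and 0 lower (2.2% and 0.383% of genes), and so did leaving out WT water 3 and 6 (1.58% and 0.188% of genes). This is the comparison whose groups overlapped in GC slope. In bulk cortex, for every result below, fewer cells of a type and less RNA per cell cannot be told apart.

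**Figure D2:**
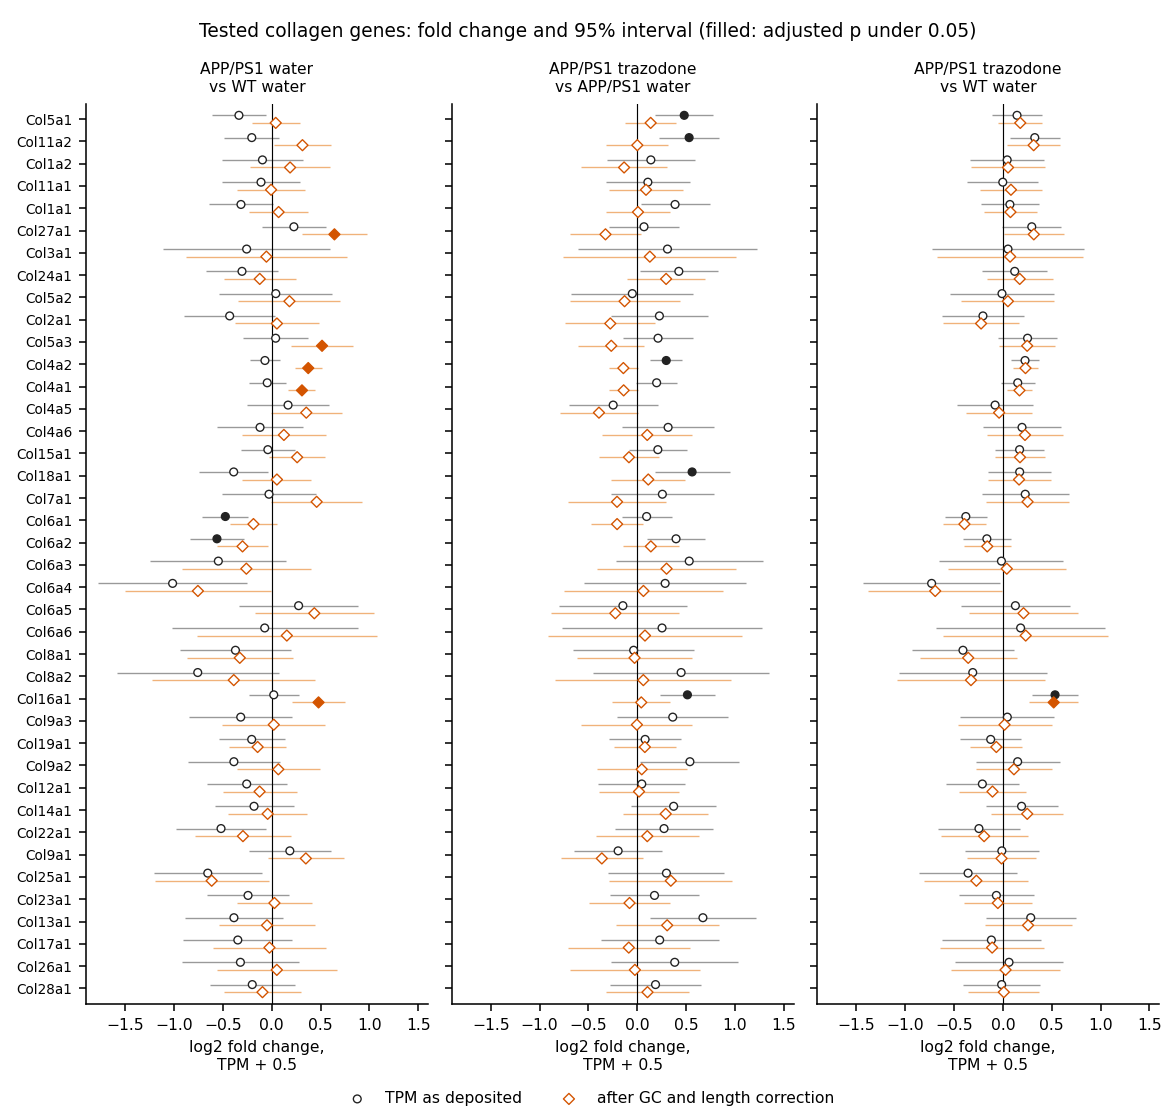
Log2 fold change of each of the 40 tested collagens in the 3 comparisons, with 95% intervals, from limma as analysed (black circles) and after the GC and length correction (orange diamonds); filled symbols mark an adjusted p under 0.05. In both comparisons that involve APP/PS1 water the corrected values sit apart from the uncorrected ones, and in APP/PS1 trazodone against WT water they lie close together.

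Among the type VI genes, Col6a1, Col6a2 and Col6a3 encode the alpha chains that assemble into the type VI microfilament, and Col6a4, Col6a5 and Col6a6 encode chains that can take the place of alpha3. Col6a1 lies at chr10:76708792-76726168 and Col6a2 nearby at chr10:76595762-76623630, both on the minus strand (GRCm38, GENCODE M21). The windows from 250 bases before to 50 bases after their RefSeq transcription starts are shown because these genes were the ones that fell in APP/PS1 water. For Col6a1 the window is chr10:76725995-76726294, and Col6a2 has 2 RefSeq windows, chr10:76623581-76623880 for an upstream start and chr10:76623355-76623654 for a downstream start (GRCm38.p6, minus strand). Capitals mark a GC box, GGGCGG or its reverse complement CCGCCC, the letters bound by Sp1-family factors.
Col6a1: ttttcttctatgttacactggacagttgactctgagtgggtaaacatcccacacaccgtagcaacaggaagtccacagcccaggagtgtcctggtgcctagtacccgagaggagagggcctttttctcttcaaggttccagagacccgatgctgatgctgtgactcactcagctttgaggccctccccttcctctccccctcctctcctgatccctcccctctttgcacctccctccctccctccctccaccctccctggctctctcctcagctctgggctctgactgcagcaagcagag
Col6a2 upstream: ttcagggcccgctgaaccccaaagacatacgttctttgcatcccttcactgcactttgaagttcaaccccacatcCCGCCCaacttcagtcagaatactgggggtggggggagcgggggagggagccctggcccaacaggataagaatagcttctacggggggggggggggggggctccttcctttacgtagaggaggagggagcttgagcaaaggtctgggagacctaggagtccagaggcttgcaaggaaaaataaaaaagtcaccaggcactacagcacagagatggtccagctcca
Col6a2 downstream: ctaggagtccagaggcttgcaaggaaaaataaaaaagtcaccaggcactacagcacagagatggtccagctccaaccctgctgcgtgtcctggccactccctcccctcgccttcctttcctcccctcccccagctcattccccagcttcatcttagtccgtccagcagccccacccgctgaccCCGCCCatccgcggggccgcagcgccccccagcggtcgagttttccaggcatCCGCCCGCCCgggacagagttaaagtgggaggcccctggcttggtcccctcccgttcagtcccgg
The Col6a1 window held no GC box, the upstream Col6a2 window held 1 and the downstream Col6a2 window held 3, of which a pair overlap. A GC box was found in 23 of 37 collagen windows (62.2%), from 34 of the 43 genes, and in 35.7% of 32851 windows of all genes. The CCAAT box (CCAAT or ATTGG) was in 35.1% of collagen windows and 37.4% of all windows, and TATAAA or its reverse complement in 13.5% and 13.6%. Collagen windows had a median GC content of 60.0%, against 52.7% over all windows.

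The type VI sum was 101 ± 13.4 TPM in WT water (89.3 to 127), 70.5 ± 4.5 in APP/PS1 water (65.5 to 74.5) and 80.4 ± 6.2 in APP/PS1 trazodone (72.5 to 87.4). Neither APP/PS1 group overlapped WT water, also without WT water 3 and 6, where the WT sum was 95.1 ± 4.0 TPM (89.3 to 98.6). Col6a1 had a lowest, median and highest of 64.6, 70.1 and 97.1 TPM in WT water, 56.0, 54.7 and 47.1 TPM in the APP/PS1 water libraries, and 51.7, 58.9, 54.5 and 59.4 TPM in the trazodone libraries. Every APP/PS1 library, with or without trazodone, lay below every WT library, and WT water 6 lay far above the other WT libraries. Col6a1 fell in APP/PS1 water by 0.47 on the log2 scale (SE 0.11, limma adjusted p = 0.00664). Its value was -0.38 (adjusted p = 0.00533) without WT water 3 and 6 and -0.19 (adjusted p = 0.317) after the GC and length correction. The fall in APP/PS1 water was called in 13 of 13 fits that left out a single library. In trazodone against WT water the value was -0.38 (SE 0.10, adjusted p = 0.0746), which missed the threshold, and it was -0.30 (adjusted p = 0.0346) without WT water 6. After the correction it was -0.39 (adjusted p = 0.0698), so this estimate moved little with GC content. The difference between trazodone and APP/PS1 water was 0.10 (95% interval -0.16 to 0.35, adjusted p = 0.639).

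Col6a2 had a lowest, median and highest of 19.0, 19.7 and 23.5 TPM in WT water, with 12.7, 13.7 and 14.6 TPM in APP/PS1 water and 14.0, 23.0, 19.3 and 17.5 TPM in trazodone. The APP/PS1 water libraries all lay below WT, while trazodone libraries spread from the APP/PS1 water range to the WT range. Col6a2 fell in APP/PS1 water by 0.56 (SE 0.13, limma adjusted p = 0.00574), with -0.54 (adjusted p = 0.0204) without WT water 3 and 6 and -0.30 (adjusted p = 0.131) after the correction. In trazodone against APP/PS1 water it stood at 0.40 (adjusted p = 0.0643), with 0.14 (adjusted p = 0.635) after the correction. It was called in 1 of 13 fits that left out a library, at 0.52 (adjusted p = 0.0136). That fit left out trazodone library 1, which was the lowest of its group. Against WT water Col6a2 stood at -0.16 in trazodone (adjusted p = 0.584).

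The third chain of the classical trimer was present at far lower transcript levels. Col6a3 ranged from 1.19 to 5.96 TPM in WT water (median 3.97), with 3.01, 1.6 and 2.08 TPM in APP/PS1 water and 2.56, 3.51, 3.68 and 3.84 TPM in trazodone. The lowest value of all 13 libraries was that of WT water 3, and the groups overlapped. Its fold change in APP/PS1 water was -0.55 (SE 0.32, adjusted p = 0.25), and without WT water 3 and 6 it was called lower at -0.67 (adjusted p = 0.0335), as it was without WT water 3 alone (-0.79, adjusted p = 0.0205). The corrected value was -0.26 (adjusted p = 0.639). The Col6a1 to Col6a2 ratio was 3.63 ± 0.67 in WT water, 3.87 ± 0.60 in APP/PS1 water and 3.12 ± 0.51 in trazodone, and these ranges overlapped.

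The alternative chains were near the detection minimum and differed widely between libraries. Col6a4 ran from 0.464 to 2.92 TPM in WT water, 0.327 to 0.719 TPM in APP/PS1 water and 0.408 to 1.29 TPM in trazodone. Its fold change in APP/PS1 water was -1.01 (SE 0.36, adjusted p = 0.0536). Of 13 fits that each left out 1 library, 2 called Col6a4 lower. These were the fits without WT water 2 (-1.22, adjusted p = 0.0131) or 4 (-1.11, adjusted p = 0.0474). With WT water 3 and 6 both removed, Col6a4 stood at -0.68 (adjusted p = 0.164). Its corrected value was -0.76 (adjusted p = 0.181). The highest Col6a4 libraries were WT water 6 and 3, at 2.92 and 2.34 TPM, which carried choroid plexus markers. The part of choroid plexus in these values was not tested. Col6a5 averaged 0.707 ± 0.370, 0.938 ± 0.381 and 0.798 ± 0.323 TPM in the 3 groups. Col6a6 averaged 0.632 ± 0.526, 0.558 ± 0.412 and 0.933 ± 1.11 TPM. None of these 3 genes was called in any comparison of all 13 libraries.

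**Figure D3:**
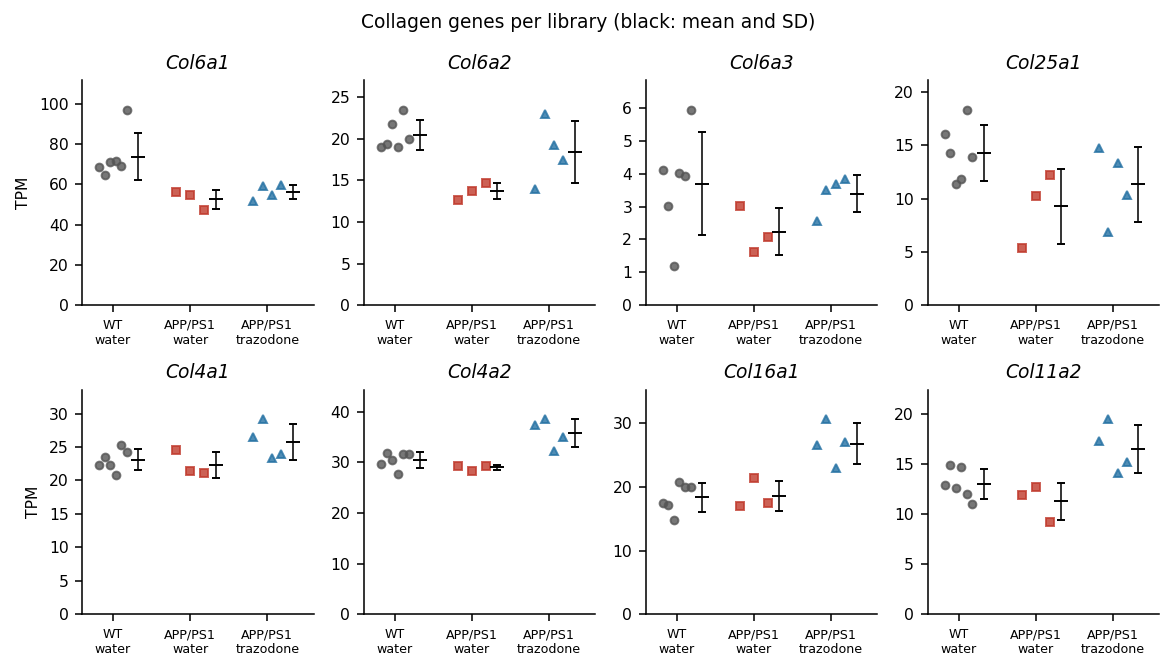
TPM of 8 collagens in each library, 1 point per library, with the group mean and SD in black: Col6a1, Col6a2, Col6a3, Col25a1, Col4a1, Col4a2, Col16a1 and Col11a2. For Col6a1 all 7 APP/PS1 libraries lie below the 6 WT libraries, for Col25a1 the groups overlap, and for Col16a1 and Col4a2 the 4 trazodone libraries lie above all others.

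None of the 4 transmembrane collagens was called by limma in any comparison, and all 4 had fold changes below 0 in APP/PS1 water against WT water. At an unadjusted p under 0.05, 1 was lower there and 1 was higher in trazodone against APP/PS1 water. The class sum was 26.3 ± 5.3 TPM in WT water, 18.7 ± 3.7 in APP/PS1 water and 22.9 ± 1.9 in trazodone. Its median fold change was -0.37 in APP/PS1 water against WT water, 0.26 in trazodone against APP/PS1 water and -0.09 in trazodone against WT water. After the GC and length correction these medians were -0.04, 0.11 and -0.08, and 3 of the 4 genes were below 0 in the first comparison.

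Col25a1, the plaque-associated neuronal collagen (chr3:130131501-130599877, plus strand, GRCm38), had a lowest, median and highest of 11.3, 14.1 and 18.4 TPM in WT water. It stood at 5.35, 10.2 and 12.2 TPM in APP/PS1 water and at 14.8, 6.89, 13.3 and 10.3 TPM in trazodone. The groups overlapped: APP/PS1 water 3 lay inside the WT range, and the low values were APP/PS1 water 1 and trazodone library 2. The fold change in APP/PS1 water was -0.65 (SE 0.26, 95% interval -1.20 to -0.10, limma adjusted p = 0.0809). Without APP/PS1 water 3 it was -0.88 (adjusted p = 0.0436), and over all fits that left out a library it ran from -0.88 to -0.32. Col25a1 has the lowest GC content of the tested collagens, and the correction moved its value only to -0.61 (adjusted p = 0.16). Without WT water 3 and 6 it was -0.73 (adjusted p = 0.0929). In trazodone it was 0.30 against APP/PS1 water (95% interval -0.30 to 0.89, adjusted p = 0.516) and -0.36 against WT water (95% interval -0.86 to 0.15, adjusted p = 0.551). The first of these turned to -0.03 without APP/PS1 water 1. Of 6 neuronal markers, 2 were called lower in APP/PS1 water against WT water, with a median of -0.33. There 17.5% of all tested genes were called lower. After the correction 1 of the 6 was called lower, with a median of -0.24, against 6.16% of genes. The part of these markers in the Col25a1 value was not tested.

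Col23a1, a shed transmembrane collagen, ranged from 7.25 to 14.9 TPM in WT water (median 8.86), with 8.53, 7.16 and 8.58 TPM in APP/PS1 water and 7.91, 11.9, 9.11 and 8.27 TPM in trazodone. The highest value was WT water 5 and the groups overlapped throughout. Its fold change in APP/PS1 water was -0.24 (adjusted p = 0.409), and 0.03 after the correction. Col13a1, which acts at the neuromuscular junction and other adhesion sites, ranged from 0.914 to 2.37 TPM in WT water (median 1.13), with 0.805, 0.667 and 1.28 TPM in APP/PS1 water and 1.56, 1.96, 1.45 and 1.96 TPM in trazodone. All trazodone libraries lay above all APP/PS1 water libraries, and the fold change was 0.67 (SE 0.25, adjusted p = 0.0902), with 0.31 (adjusted p = 0.559) after the correction. Col17a1, a hemidesmosome collagen of epithelia, ranged from 0.320 to 1.45 TPM in WT water (median 0.61), with 0.485, 0.350 and 0.450 TPM in APP/PS1 water and 0.529, 0.771, 0.4 and 0.682 TPM in trazodone. These levels sit at the minimum and overlapped between groups, with a fold change of -0.35 in APP/PS1 water (adjusted p = 0.371) and -0.02 (adjusted p = 0.972) after the correction.

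Col4a1 and Col4a2 encode the alpha chains of the type IV heterotrimer found in nearly all basement membranes. They lie head to head on opposite strands, Col4a1 at chr8:11198423-11312826 (minus) and Col4a2 at chr8:11312805-11449287 (plus, GRCm38, GENCODE M21). Their windows of 250 bases before to 50 after the RefSeq start, chr8:11312777-11313076 for Col4a1 and chr8:11312555-11312854 for Col4a2 (GRCm38.p6), are shown because they overlap. Capitals mark the 78 bases that the windows share, chr8:11312777-11312854, which read as reverse complements of each other.
Col4a1: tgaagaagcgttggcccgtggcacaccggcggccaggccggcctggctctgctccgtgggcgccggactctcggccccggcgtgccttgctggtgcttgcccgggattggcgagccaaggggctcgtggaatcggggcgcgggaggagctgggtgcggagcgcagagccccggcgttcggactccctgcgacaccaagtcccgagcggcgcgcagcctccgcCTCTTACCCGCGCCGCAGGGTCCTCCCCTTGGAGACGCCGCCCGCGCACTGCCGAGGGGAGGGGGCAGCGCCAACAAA
Col4a2: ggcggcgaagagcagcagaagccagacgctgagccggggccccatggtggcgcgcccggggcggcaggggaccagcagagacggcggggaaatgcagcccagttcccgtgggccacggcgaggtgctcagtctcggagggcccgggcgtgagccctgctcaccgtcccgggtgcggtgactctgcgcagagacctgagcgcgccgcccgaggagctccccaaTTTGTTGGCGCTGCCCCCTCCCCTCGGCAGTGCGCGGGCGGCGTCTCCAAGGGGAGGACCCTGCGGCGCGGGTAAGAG
The levels of the pair kept a narrow ratio. The Col4a2 to Col4a1 ratio was 1.32 ± 0.04 in WT water, 1.30 ± 0.10 in APP/PS1 water and 1.39 ± 0.06 in trazodone. Whether the authors' counting used strand is not stated, and reads from the short overlap of the genes cannot be assigned without it.

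Col4a2 had a lowest, median and highest of 27.8, 31.0 and 31.8 TPM in WT water, 29.2, 28.4 and 29.4 TPM in APP/PS1 water, and 37.4, 38.6, 32.2 and 35.0 TPM in trazodone. Every trazodone library lay above every other library, and APP/PS1 water lay inside the WT range. Col4a2 rose in trazodone against APP/PS1 water by 0.30 (SE 0.08, limma adjusted p = 0.0179), and the corrected value was -0.14 (adjusted p = 0.288). The call was lost without APP/PS1 water 2 (0.28, adjusted p = 0.0645) and without trazodone library 2 (0.26, adjusted p = 0.0571). Against WT water the trazodone value was 0.23 both as analysed (adjusted p = 0.102) and after the correction (adjusted p = 0.0545). Between APP/PS1 water and WT water it was -0.07 (adjusted p = 0.524), near 0, and 0.37 (adjusted p = 0.00203) after the correction.

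Col4a1 had a lowest, median and highest of 20.9, 22.9 and 25.3 TPM in WT water, with 24.6, 21.5 and 21 TPM in APP/PS1 water and 26.5, 29.2, 23.4 and 24.0 TPM in trazodone. The groups overlapped, and the highest values were trazodone libraries 1 and 2. Its fold change was 0.20 in trazodone against APP/PS1 water (adjusted p = 0.186) and -0.05 in APP/PS1 water against WT water (adjusted p = 0.751), with 0.31 (adjusted p = 0.00676) in the latter after the correction. Col4a5 and Col4a6, the X-linked chains of specialised basement membranes, averaged 2.88 ± 0.553 and 0.787 ± 0.264 TPM in WT water and were not called in any comparison. Col4a3 and Col4a4, the chains of the kidney glomerular membrane, stayed under the minimum, and their highest library was WT water 6 at 0.505 and 0.704 TPM.

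Of the basement membrane zone genes, Col15a1 and Col18a1 encode multiplexins with cleavable anti-angiogenic ends, and Col7a1 encodes anchoring fibrils. Col15a1 ranged from 2.94 to 3.88 TPM in WT water (median 3.66), with 3.38, 3.74 and 3.07 TPM in APP/PS1 water and 4.51, 3.68, 3.67 and 4.18 TPM in trazodone. The groups overlapped and it was not called. Col18a1, the source of endostatin (chr10:77052178-77166548, minus strand), ranged from 2.42 to 4.55 TPM in WT water (median 3.13), with 2.17, 2.55 and 2.29 TPM in APP/PS1 water and 3.35, 3.83, 3.73 and 3.82 TPM in trazodone. All trazodone libraries lay above all APP/PS1 water libraries, and both groups overlapped WT. Col18a1 rose by 0.56 in trazodone against APP/PS1 water (SE 0.18, limma adjusted p = 0.0466), and the corrected value was 0.11 (adjusted p = 0.799). This call stood in only 3 of 13 fits that left out a library. It was lost without WT water 1, 3 or 5, or without any single APP/PS1 library, with adjusted p up to 0.122 and values of 0.52 to 0.61 throughout. Part of the Col18a1 locus overlaps Slc19a1, which has its own entry. Col7a1 averaged 1.71 ± 0.371, 1.65 ± 0.209 and 2.15 ± 0.728 TPM in the 3 groups and was not called.

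Of the fibrillar genes, 0 of 11 were called by limma between APP/PS1 water and WT water, where 1 had an unadjusted p under 0.05, and 2 of 11, Col5a1 and Col11a2, rose in trazodone against APP/PS1 water, where 12.5% of all tested genes were called higher. After the correction neither was called. These are the minor fibrillar chains that nucleate fibrils and set their diameter. The class sum was 74.0 ± 5.7 TPM in WT water, 64.0 ± 2.3 in APP/PS1 water and 81.6 ± 12.3 in trazodone. The class median was -0.20, 0.23 and 0.07 in APP/PS1 water against WT water, trazodone against APP/PS1 water and trazodone against WT water, and 0.07, 0.00 and 0.08 after the GC and length correction, which turned the sign of the first.

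Col5a1 (chr2:27886425-28039514, plus strand) ranged from 12.2 to 17.6 TPM in WT water (median 14.4), with 12.3, 12.4 and 10.2 TPM in APP/PS1 water and 14.0, 20.0, 15.7 and 16.2 TPM in trazodone. All trazodone libraries lay above all APP/PS1 water libraries, and trazodone library 2 was the highest of all 13. Col5a1 rose by 0.48 in trazodone against APP/PS1 water (SE 0.14, limma adjusted p = 0.0305), and the corrected value was 0.14 (adjusted p = 0.612). The call was lost without APP/PS1 water 1, 2 or 3 and without trazodone library 2 or 4, with values of 0.38 to 0.53 and adjusted p of 0.0508 to 0.113. Between APP/PS1 water and WT water it was -0.34 (adjusted p = 0.0748), and 0.04 after the correction, with -0.39 (adjusted p = 0.0428) without WT water 1.

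Col11a2 (chr17:34039437-34066685, plus strand), the most GC-rich of the tested collagens, ranged from 11.1 to 14.9 TPM in WT water (median 12.8), with 12, 12.8 and 9.24 TPM in APP/PS1 water and 17.3, 19.5, 14.1 and 15.2 TPM in trazodone. All trazodone libraries lay above all APP/PS1 water libraries, and trazodone libraries 1, 2 and 4 also lay above every WT library. Col11a2 rose by 0.53 in trazodone against APP/PS1 water (SE 0.14, limma adjusted p = 0.021), and the corrected value was 0.00 (adjusted p = 1). The call was lost without APP/PS1 water 3 (0.40, adjusted p = 0.0913) and without trazodone library 1 (0.51, adjusted p = 0.0516) or 2 (0.45, adjusted p = 0.064). Against WT water the trazodone value was 0.33 (adjusted p = 0.238).

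The remaining 9 fibrillar genes were not called as analysed. Col1a1 averaged 6.13 ± 1.02, 4.78 ± 0.262 and 6.48 ± 1.18 TPM in WT water, APP/PS1 water and trazodone, and Col1a2 averaged 10.9 ± 2.54, 9.90 ± 0.875 and 11.1 ± 2.25 TPM. The Col1a2 to Col1a1 ratio was 1.76 ± 0.25, 2.08 ± 0.24 and 1.71 ± 0.15. Col3a1, the chain of reticular fibrils and vessel walls, spread widely at 4.69 ± 2.01, 3.54 ± 0.355 and 5.08 ± 2.82 TPM. Col11a1 averaged 7.43 ± 1.69 TPM in WT water, Col27a1 4.77 ± 0.658, Col24a1 3.75 ± 0.802, the cartilage collagen Col2a1 3.26 ± 0.763, Col5a2 3.11 ± 0.923 and Col5a3 2.08 ± 0.299. After the correction Col27a1 and Col5a3 were called higher in APP/PS1 water against WT water, at 0.64 (adjusted p = 0.016) and 0.52 (adjusted p = 0.0336), against 0.23 (adjusted p = 0.317) and 0.04 (adjusted p = 0.878) before it.

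Col16a1, a fibril-associated collagen with interrupted helices that binds integrins, was the single collagen to rise in both comparisons of trazodone as analysed. On FPKM 1 type IV gene was also called higher in each of them. Both comparisons use the same trazodone libraries, so they are not independent. Col16a1 lies at chr4:130047840-130099283 on the plus strand. It ranged from 14.8 to 20.8 TPM in WT water (median 18.6), with 17, 21.3 and 17.4 TPM in APP/PS1 water and 26.5, 30.6, 22.9 and 26.9 TPM in trazodone. Every trazodone library lay above every library of the other groups, and APP/PS1 water overlapped WT. Col16a1 rose by 0.53 against WT water (SE 0.11, limma adjusted p = 0.0175). That value was 0.52 (adjusted p = 0.0286) after the GC and length correction and 0.49 (adjusted p = 0.0468) without WT water 3 and 6. The call was lost without trazodone library 1 (0.54, adjusted p = 0.0571), 2 (0.47, adjusted p = 0.0718) or 4 (0.53, adjusted p = 0.0598). Against APP/PS1 water it rose by 0.51 (SE 0.13, adjusted p = 0.0159), and the corrected value was 0.04 (adjusted p = 0.921). That call was lost without APP/PS1 water 1 (0.46, adjusted p = 0.0613) or 3 (0.47, adjusted p = 0.0556) or trazodone library 2 (0.45, adjusted p = 0.0508). Between APP/PS1 water and WT water it was 0.02 (adjusted p = 0.923) as analysed and 0.48 (adjusted p = 0.026) after the correction. Without a WT trazodone group, genotype and drug cannot be told apart in the difference from WT water.

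Col9a3, a chain of cartilage type IX collagen, ranged from 8.01 to 20.3 TPM in WT water (median 11.3), with 8.33, 9.01 and 10.1 TPM in APP/PS1 water and 12.3, 16.1, 9.13 and 11.0 TPM in trazodone. The highest value was WT water 6, the library with the highest choroid plexus markers, and the groups overlapped. Col9a3 was not called, and it overlaps Tcfl5, which has its own entry. Col19a1, which some interneurons make, averaged 11.4 ± 0.879 TPM in WT water, 10.01 ± 2.78 in APP/PS1 water and 10.5 ± 1.82 in trazodone. Its coefficient of variation was 7.7% over the WT libraries and 27.8% over those of APP/PS1 water. Col9a2 averaged 7.59 ± 1.80, 5.58 ± 0.580 and 8.60 ± 2.47 TPM, and Col12a1 averaged 5.09 ± 0.762, 4.27 ± 1.24 and 4.37 ± 1.04 TPM. Col14a1, Col22a1 and Col9a1 averaged 1.16, 1.09 and 0.477 TPM in WT water, and none of these 7 genes was called.

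In the short-chain class, Col8a1 and Col8a2 encode the hexagonal network of endothelial and corneal matrix. Col8a1 stood at 1.38, 1.62 and 4.55 TPM (lowest, median and highest) in WT water, 1.39, 1.55 and 1.29 TPM in APP/PS1 water and 1.35, 1.43, 1.31 and 1.33 TPM in trazodone. Col8a2 stood at 0.619, 1.30 and 4.22 TPM in WT water, 0.617, 0.846 and 0.775 TPM in APP/PS1 water and 1.30, 2.04, 0.761 and 0.930 TPM in trazodone. For both genes the highest libraries were WT water 6 and WT water 3, the libraries with choroid plexus markers, and the part of choroid plexus in these values was not tested. The short-chain sum was 2.95 ± 0.54 TPM in WT water without those libraries, against 4.36 ± 2.52 TPM with them, 2.37 ± 0.17 TPM in APP/PS1 water and 2.93 ± 0.64 TPM in trazodone. Col10a1, the collagen of hypertrophic cartilage, averaged 0.332 ± 0.206 TPM in WT water and overlaps Nt5dc1.

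Col26a1, a collagen of reproductive tissues with a short helix, ranged from 2.87 to 9.33 TPM in WT water (median 7.49), with 4.64, 4.76 and 5.16 TPM in APP/PS1 water and 7.96, 7.01, 5.13 and 6.11 TPM in trazodone. The WT libraries spanned both other groups. Col28a1, which is associated with glia of peripheral nerves, ranged from 0.604 to 1.06 TPM in WT water (median 0.90), with 1.05, 0.557 and 0.463 TPM in APP/PS1 water and 0.616, 1.12, 0.799 and 0.816 TPM in trazodone. The groups overlapped, and neither gene was called.

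**Figure D4:**
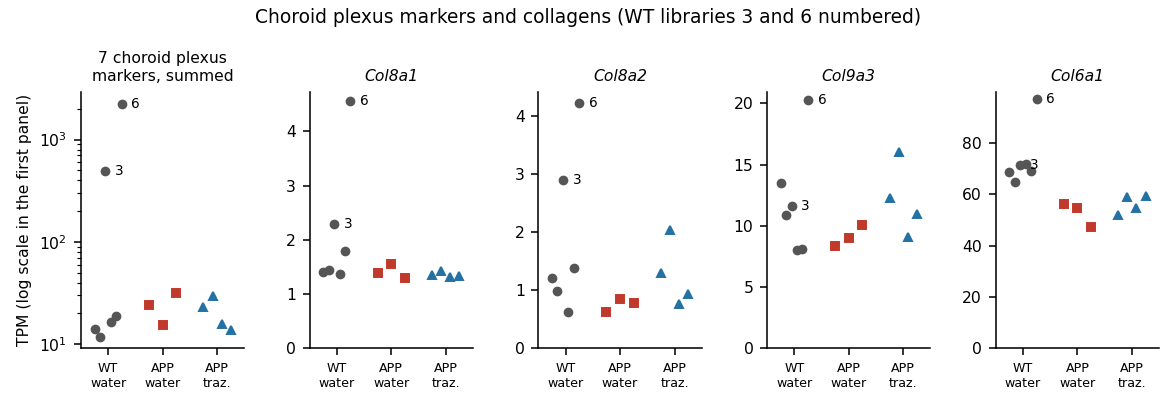
Summed TPM of 7 choroid plexus markers (log axis) and TPM of Col8a1, Col8a2, Col9a3 and Col6a1 in each library, 1 point per library, with WT water 3 and 6 numbered. WT water 6 is the highest library in all 5 panels, and WT water 3 is second highest for the marker sum, Col8a1 and Col8a2.

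Genes that make, process, bind and break down collagen were read from 6 lists. Their counts stand against the all-gene shares given above, 6.19% higher and 17.5% lower in APP/PS1 water against WT water, 12.5% and 3.92% in trazodone against APP/PS1 water, and 1.97% and 0.258% in trazodone against WT water. The calls given below for Mia3, P3h3, Ppib, Pcolce2, Mmp14 and Lamb3 were each lost both on FPKM and with median-ratio scaling.

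Of 20 tested genes for prolyl and lysyl modification and folding, 0 rose and 2 fell in APP/PS1 water against WT water, 1 rose in trazodone against APP/PS1 water, and none was called in trazodone against WT water. The share that fell, 2 of 20, was below the all-gene share. Mia3, the endoplasmic reticulum exit receptor that loads procollagen into large carriers, had a lowest, median and highest of 83.7, 90.0 and 96.6 TPM in WT water and 77.6, 66.3 and 78.7 TPM in APP/PS1 water, with trazodone between 81.0 and 85.2 TPM. It fell in APP/PS1 water, without overlap with WT, by 0.28 (limma adjusted p = 0.0119), with -0.29 (adjusted p = 0.00953) after the correction and -0.20 (adjusted p = 0.0824) without APP/PS1 water 2. It was -0.19 (adjusted p = 0.0578) on FPKM and -0.18 (adjusted p = 0.0721) with median-ratio scaling. The prolyl hydroxylase homologue P3h3 fell by 0.27 (adjusted p = 0.0436), with 0.15 after the correction. That call was lost without WT water 2, 3, 5 or 6, APP/PS1 water 1 or 2 or trazodone library 1 or 3, with values of -0.27 to -0.21. Ppib, the cyclophilin that speeds folding of the triple helix, rose in trazodone against APP/PS1 water by 0.23 (adjusted p = 0.0242), with 0.13 (adjusted p = 0.358) after the correction and 0.20 to 0.24 with no call without APP/PS1 water 1 or 2 or trazodone library 2 or 4. The list medians were -0.08, 0.12 and -0.02 in the 3 comparisons, near those of all genes, and 0.10, -0.11 and -0.03 after the correction.

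Of 11 tested genes for propeptide removal and cross-linking, Lox and Pcolce2 were called. Lox, the lysyl oxidase that starts covalent cross-links, was lowest in WT water (0.292 to 1.01 TPM, median 0.62), with 3.06, 3.26 and 1.49 TPM in APP/PS1 water and 1.89, 2.11, 1.53 and 1.90 TPM in trazodone. Every APP/PS1 library lay above every WT library. Lox rose by 1.42 in APP/PS1 water (SE 0.23, limma adjusted p = 0.00069) and by 1.07 in trazodone against WT water (adjusted p = 0.0131), with corrected values of 1.38 (adjusted p = 0.000973) and 1.13 (adjusted p = 0.00477). The trazodone call was lost without trazodone library 2 (1.02, adjusted p = 0.0501). Pcolce2, an enhancer of procollagen C-proteinase, fell in APP/PS1 water by 0.64 (adjusted p = 0.0336), with values of 2.70 to 5.18 TPM in WT water and 1.5 to 2.25 TPM in APP/PS1 water. That call was lost without WT water 1 (-0.63), without APP/PS1 water 2 (-0.68) or 3 (-0.50) and without WT water 3 and 6 (-0.53, adjusted p = 0.0577). The corrected Pcolce2 value was -0.61 (adjusted p = 0.0391). The list medians were -0.18, 0.18 and 0.07, and 0.09, 0.03 and 0.04 after the correction, which turned the sign of the first.

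Of 13 tested genes for collagen breakdown, Ctsl rose and Furin and Mmp14 fell in APP/PS1 water. Ctsl, a lysosomal cathepsin, had a lowest, median and highest of 53.6, 59.3 and 72.2 TPM in WT water, with 107, 114 and 90.9 TPM in APP/PS1 water and 98.2, 96.1, 93.5 and 101 TPM in trazodone. No APP/PS1 library overlapped WT. It rose by 0.74 in APP/PS1 water (limma adjusted p = 0.00017) and by 0.65 in trazodone against WT water (adjusted p = 0.000766), and both calls stood after the correction at 0.74. Furin, the convertase that sheds the ectodomain of transmembrane collagens including Col25a1, stood at 24.9 to 28.3 TPM in WT water, 21.7, 20.8 and 17.7 TPM in APP/PS1 water and 27.5, 29.2, 27.6 and 28.9 TPM in trazodone. It fell by 0.37 in APP/PS1 water (adjusted p = 0.00284) and rose by 0.49 in trazodone against APP/PS1 water (adjusted p = 0.00142). The corrected values were -0.07 (adjusted p = 0.483) and 0.21 (adjusted p = 0.0894). The membrane collagenase Mmp14 fell by 0.44 (adjusted p = 0.0409), with -0.24 after the correction, and the call was lost without WT water 1, 5 or 6 or APP/PS1 water 2 or 3 (-0.43 to -0.37) and without WT water 3 and 6 (-0.41, adjusted p = 0.0814). The list medians were 0.00, 0.08 and 0.03, and 0.13, -0.07 and 0.05 after the correction.

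Of 7 tested collagen receptors, Lair1 rose and Ddr1 fell in APP/PS1 water. Lair1, an inhibitory collagen receptor of immune cells, ranged from 4.06 to 6.09 TPM in WT water, with 8.68, 8.82 and 7.67 TPM in APP/PS1 water and 8.73, 8.72, 9.77 and 10.9 TPM in trazodone. It rose without overlap by 0.67 in APP/PS1 water (limma adjusted p = 0.00219) and by 0.84 in trazodone against WT water (adjusted p = 0.000873), with corrected values of 0.66 and 0.94. Microglial markers moved in the same comparisons, with 3 of 5 higher in each, against 6.19% and 1.97% of all tested genes. The microglial sums were 155 to 204 TPM in WT water, 343 to 454 TPM in APP/PS1 water and 416 to 496 TPM in trazodone. The part of microglial markers in the Lair1 result was not tested. Ddr1, a collagen-activated receptor tyrosine kinase rich in oligodendrocytes, ranged from 45.8 to 65.1 TPM in WT water (median 50.4), with 41.2, 30.4 and 33.7 TPM in APP/PS1 water and 63.8, 65.2, 52.0 and 53.0 TPM in trazodone. It fell by 0.56 in APP/PS1 water (adjusted p = 0.00467) and rose by 0.73 in trazodone against APP/PS1 water (adjusted p = 0.00262), with corrected values of -0.19 (adjusted p = 0.272) and 0.33 (adjusted p = 0.123). Of 5 oligodendrocyte markers, 1, Mbp, was called in each of these comparisons, where 17.5% of all tested genes were lower and 12.5% higher. The marker medians were -0.25 and 0.35, and -0.10 and 0.12 after the correction. Mbp was lower in APP/PS1 water by 0.74 (adjusted p = 0.0177), and at -0.52 (adjusted p = 0.11) without APP/PS1 water 3. Neither Mbp call stood once GC content and length were corrected for, at -0.59 (adjusted p = 0.0807) and 0.81 (adjusted p = 0.0603). The oligodendrocyte marker sums overlapped, at 1360 to 2358 TPM in WT water, 1139 to 1846 TPM in APP/PS1 water and 1754 to 2342 TPM in trazodone. The part of these markers in the Ddr1 result was not tested.

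Of 16 tested basement membrane partners, 1 rose and 3 fell in APP/PS1 water, 2 rose in trazodone against APP/PS1 water, and 1 rose and 1 fell in trazodone against WT water. Sparc, a collagen-binding matricellular protein, ranged from 164 to 246 TPM in WT water (median 185), with 335, 308 and 281 TPM in APP/PS1 water and 271, 253, 296 and 301 TPM in trazodone. It rose in APP/PS1 water by 0.67 (limma adjusted p = 0.00145; corrected 0.80) and in trazodone against WT water by 0.53 (adjusted p = 0.0194; corrected 0.50), and the latter call was lost without trazodone library 1 (0.55), 3 (0.50) or 4 (0.50).

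Agrn, a heparan sulfate proteoglycan of the basement membrane, stood at 84.7 to 93.8 TPM in WT water, 81.8, 62.6 and 57.8 TPM in APP/PS1 water and 92.6, 92.9, 86.4 and 75.7 TPM in trazodone. It fell by 0.43 in APP/PS1 water (limma adjusted p = 0.00615; corrected -0.09) and rose by 0.38 in trazodone against APP/PS1 water (adjusted p = 0.0265; corrected 0.08). The rise was lost without APP/PS1 water 2 (0.33) or 3 (0.27) or trazodone library 1 or 2 (0.34 each). Lamb3, a laminin beta chain, fell in APP/PS1 water by 0.96 (adjusted p = 0.0393; corrected -0.68). That call was lost without WT water 1, 2 or 5, without any single APP/PS1 water library, without trazodone library 2 (-0.96 to -0.82) and without WT water 3 and 6 (-1.05, adjusted p = 0.0573). The list medians were -0.29, 0.26 and -0.09, and -0.01, 0.02 and -0.05 after the correction. After it, 2 of the 16 rose and 1 fell in APP/PS1 water, where 6.45% of genes were then called higher and 6.16% lower. In trazodone against APP/PS1 water 0 rose and 1 fell, where these shares were 2.45% and 1.63%. Of 12 small proteoglycans and fibril partners none was called by limma in any comparison, with 2, 1 and 0 genes at an unadjusted p under 0.05 and medians of -0.09, 0.08 and 0.05, which were 0.11, -0.05 and 0.08 after the correction. Some list genes were called only after the correction and are named here for that reason, chosen after their values were seen. P4hb, Plod3, Mrc2, Timp4 and Lamb2 were then higher in APP/PS1 water, and Plod3 and Lamb2 lower in trazodone against APP/PS1 water.

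**Figure D5:**
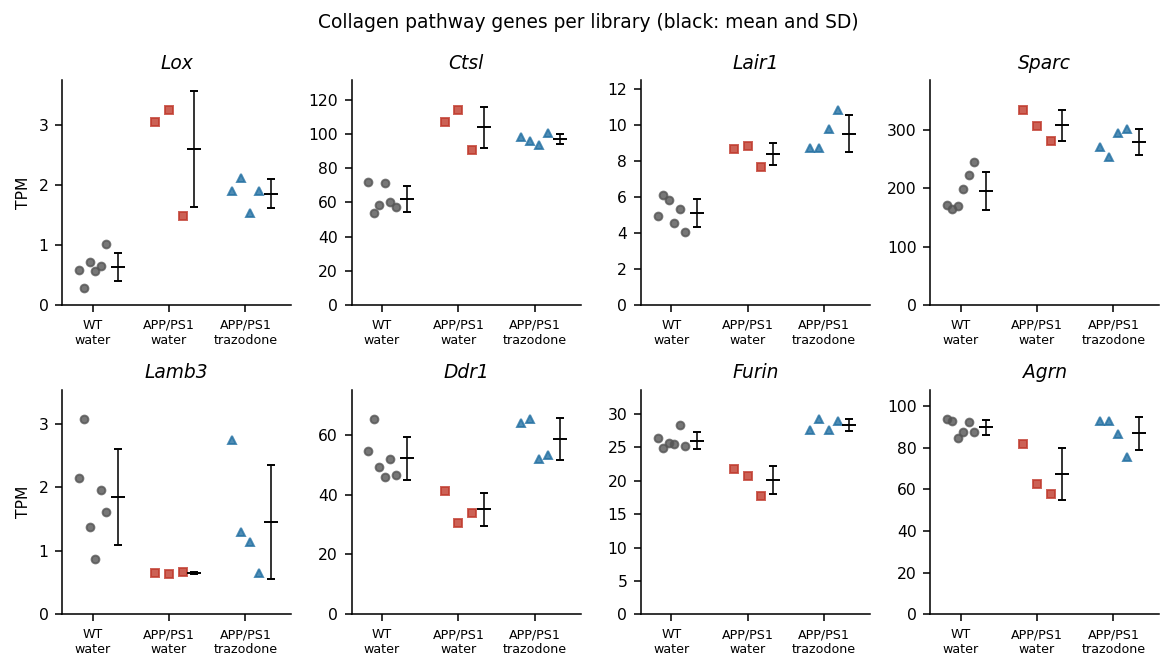
TPM of Lox, Ctsl, Lair1, Sparc, Lamb3, Ddr1, Furin and Agrn in each library, 1 point per library, with the group mean and SD in black. For Lox, Ctsl, Lair1 and Sparc all APP/PS1 libraries lie above all WT libraries, and for Lamb3, Ddr1, Furin and Agrn all APP/PS1 water libraries lie below all WT libraries.

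Markers of vascular, meningeal and neuronal cells were read beside the collagens. Of 10 endothelial markers none was called by limma in any comparison, 2, 0 and 1 had an unadjusted p under 0.05, and their sums were 278 to 328 TPM in WT water, 322 to 366 TPM in APP/PS1 water and 311 to 410 TPM in trazodone. Of 10 mural cell markers, 1 was called higher in each trazodone comparison, against 12.5% and 1.97% of all tested genes. At an unadjusted p under 0.05, 4 were higher and 1 lower against APP/PS1 water, and 3 higher and 0 lower against WT water. The called marker was Tagln, a smooth muscle actin-binding protein. It rose in trazodone against APP/PS1 water by 0.80 (adjusted p = 0.00909) and against WT water by 0.81 (adjusted p = 0.0107). The latter value was 0.75 (adjusted p = 0.0519) without trazodone library 1. Corrected for GC content and length, the values were 0.64 (adjusted p = 0.0673), no longer called, and 0.76 (adjusted p = 0.0167). The mural sums were 207 to 271 TPM in WT water, 238 to 257 TPM in APP/PS1 water and 231 to 316 TPM in trazodone. Of 10 fibroblast and meningeal markers, 1 was called lower in APP/PS1 water and 2 higher in trazodone against APP/PS1 water. At an unadjusted p under 0.05, 3 were lower and 1 higher in the former, and 3 higher and 1 lower in the latter. After the correction 1 was called higher in the former, and none was called in the latter. Islr fell in APP/PS1 water by 0.31 (adjusted p = 0.0206) and rose in trazodone against APP/PS1 water by 0.40 (adjusted p = 0.0126). Both calls were lost without APP/PS1 water 1 (-0.25 and 0.34), and the fall also without APP/PS1 water 2 (-0.33) or WT water 3 and 6 (-0.26). Neither Islr call stood after the correction, at -0.09 (adjusted p = 0.553) and 0.13 (adjusted p = 0.497), and the fall was also lost on FPKM and with median-ratio scaling. Asgr1 rose in trazodone against APP/PS1 water by 0.74 (adjusted p = 0.0473), a call that stood in 2 of the 13 fits that left out a library, those without WT water 6 or trazodone library 4. It was 0.59 (adjusted p = 0.166) after the correction. Their sums were 144 to 226 TPM in WT water, 177 to 186 TPM in APP/PS1 water and 176 to 226 TPM in trazodone. Of 5 interneuron markers, 1, Sst, was called lower in APP/PS1 water, against 17.5% of all tested genes. Sst fell by 0.54 (adjusted p = 0.00721), and by 0.39 (adjusted p = 0.0375) after the correction, where 6.16% of genes were called lower. The interneuron list median in APP/PS1 water was -0.21, and -0.11 after the correction. Of the 6 neuronal markers, Rbfox3 and Slc17a7 fell there by 0.69 (adjusted p = 3.8e-05) and 0.49 (adjusted p = 0.00141), with corrected values of -0.37 (adjusted p = 0.00245) and -0.23 (adjusted p = 0.0788). At an unadjusted p under 0.05, 3 neuronal markers were lower and 0 higher. Rbfox3 and Slc17a7 rose in trazodone against APP/PS1 water, by 0.62 (adjusted p = 0.000399) and 0.39 (adjusted p = 0.0142), with corrected values of 0.27 (adjusted p = 0.0446) and 0.10 (adjusted p = 0.577). The 7 choroid plexus markers had a median of -0.83 in APP/PS1 water against WT water. There limma called 0 of them, and 0 had an unadjusted p under 0.05. Of 5 astrocyte markers, 3 were called higher in APP/PS1 water and 2 in trazodone against WT water, the same counts as after the correction. In trazodone against APP/PS1 water 1 was called higher, and 0 after the correction. The astrocyte sums were 1177 to 1370 TPM in WT water, 2010 to 2198 TPM in APP/PS1 water and 2107 to 2614 TPM in trazodone. No marker in these lists was at 0 in every library. The part of these cell types in the collagen, Sparc and Ctsl values was not tested.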

How the data were processed

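Poly(A) RNA of right mouse cortex was sequenced as paired-end reads on a NextSeq or NovaSeq, per the labels' protocols. The submitters' processing notes name fastp, STAR, DESeq2 and the GRCm38 (mm10) genome, with no versions. The authors deposited FPKM, which scales fragments to library size and gene length, and TPM, which scales these to a fixed total per library, per the file headers. Each table has 1 column per library. From these, log2(TPM + 0.5) of the 18612 genes with a mean TPM of 0.5 or more was fitted in limma 3.58.1 under R 4.3.3, using lmFit and eBayes with a mean-variance trend. The 3 groups shared 1 fit, contrasts were two-sided, and p-values were adjusted by Benjamini-Hochberg over all genes tested. The GC and length correction took from each library a loess trend (span 0.4) on GC content and log2 length of the longest GENCODE M21 transcript, over 18253 genes (98.1%). Depth is an estimate, from the FPKM worth of 1 fragment in 2424 single-exon genes. The limma fit was tested on simulated data without a GC trend, and that test did not cover the GC and length correction. Promoter windows came from RefSeq (GRCm38.p6).

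Collagens given by library were the transmembrane genes, every called gene and the 2 with the highest mean TPM in each class. Up to 4 called genes of each list were named. The counts of each list cover all its tested genes, and the values of 1 called gene are not reported here. Members, lists and tests were chosen with earlier results of these data known, and leaving out WT water 3 and 6 was chosen after seeing the data. Alternatives changed the pseudocount, the minimum, the scaling, the threshold, the groups fitted, the block and the libraries used. Replicate numbers were not used to pair samples: of 10 pairs with equal numbers in their titles, 2 had correlated deviations (r over 0.1), with a mean r of 0.03 against -0.01 for other pairs. For equal numbers in the library names it was also 2 of 10, with a mean r of 0.01 against -0.002. These correlations cannot exclude a shared batch.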

Additional observations from a re-analysis of the deposited data

Results flagged for a closer look

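In 10 of 114 sets of libraries of a gene and group, 1 library stood far from the others of its group by Dixon's test, which flags about 1 in 20 by chance. In WT water 6, the library with the highest choroid plexus markers, Col6a1 stood at 97.1 TPM against 64.6 to 71.7 TPM in the other WT libraries. Col8a1 stood there at 4.55 TPM against 1.38 to 2.29, Col4a4 at 0.704 TPM against 0.198 to 0.292, Col4a3 at 0.505 TPM against 0.0886 to 0.226, and Pcolce2 at 5.18 TPM against 2.70 to 3.27. The part of choroid plexus in these 5 values was not tested. Col6a6, a type VI chain near the minimum, stood at 1.66 TPM in WT water 1 against 0.269 to 0.605 TPM, and at 2.58 TPM in trazodone library 1 against 0.269 to 0.567 TPM. Among the trazodone libraries, Col5a3 was low in library 3 at 1.96 TPM against 2.76 to 2.81, and Col7a1 was low in library 4 at 1.07 TPM against 2.36 to 2.605. Col12a1 was high in trazodone library 2 at 5.93 TPM against 3.81 to 3.90.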

How the results depend on the processing

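Of 1672 values of 62 single-gene results under the alternatives, 1443 kept direction and side of the threshold, 197 lost a call, 11 gained one and 21 changed sign. In APP/PS1 water against WT water, the collagens called (2) numbered 5 after the GC and length correction, 3 without WT water 3 and 6, 6 at an adjusted p under 0.1, and 2 to 4 over the fits without 1 library, the highest without WT water 1. In trazodone against APP/PS1 water (5), they numbered 3 with no minimum or after rescaling that leaves mitochondrial, ribosomal protein and hemoglobin genes out, 2 with median-ratio scaling or a fit of the 2 groups, 0 after the correction or at an adjusted p under 0.01, and 0 to 5 without 1 library, the 0 without trazodone library 2. In trazodone against WT water (1), they numbered 2 on FPKM, with median-ratio scaling or at an adjusted p under 0.1, 0 at an adjusted p under 0.01, and 0 to 2 without 1 library. The replicate block on the number in the library name gave 3, 1 and 0 called collagens and the block on the title number 2, 5 and 1. The titles and library names do not state whether equal numbers mark paired samples.

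The signs that changed were these. After the correction, in APP/PS1 water against WT water: Col5a1 0.041, Col11a2 0.31, Col4a2 0.37, Col4a1 0.31, Col18a1 0.053, Col23a1 0.028 and P3h3 0.15. After the correction, in trazodone against APP/PS1 water: Col4a2 -0.14, Col4a1 -0.14, Col6a1 -0.21, Col23a1 -0.079 and Col17a1 -0.087. In APP/PS1 water against WT water, Col4a2 was 0.018 on FPKM and 0.033 with median-ratio scaling, and Col4a1 was 0.040, 0.056 and, after the rescaling, 0.018. There Col16a1 was -0.020 without WT water 3 and 6 and -0.079 to 0.079 without 1 library. Col25a1 in trazodone against APP/PS1 water was -0.034 to 0.53 without 1 library. The cause was not tested. A small group of 3 libraries, unknown counting error and low TPM limit the short-chain, alternative type VI and Col17a1 values.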
